A study of Hordeum vulgare with 18 samples.

Results

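Leaf and root of highland barley that received all of its fertilizer nitrogen in organic form were compared across all genes with enough counts. Highland barley is a hulless barley of high altitudes. The comparison rests on 6 of the series' 18 RNA-seq libraries, 3 of leaf and 3 of root, identified by their labels. Of the 68630 loci in the count table, 24046 were tested. The plants grew in pots of 3.5 kg of soil and were sampled at flowering. Pots at 100% organic nitrogen received no urea. Their doses were 1289 mg of superphosphate, 96 mg of K2SO4 (potassium sulfate) and 2793 mg of the organic product. The urea, superphosphate and K2SO4 doses were 357, 1545 and 140 mg at 0%, without the organic product, and 215, 1443 and 122 mg at 40%, with 1117 mg of it. Leaf and root at these other rates, 3 libraries each, are used here only to set the difference between the organs at 100% beside the same difference at 0% and 40%. All groups thus received superphosphate and K2SO4. The organs are called leaf and root in the titles, whereas the design text has above- and below-ground parts. Whether the 3 libraries of a group stem from different plants or pots is not stated.

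Leaves fix carbon in chloroplasts, and most of their nitrogen lies in the proteins of photosynthesis. Roots take up nitrate, ammonium, phosphate and other ions with membrane carriers and load them into the xylem behind the barriers of the endodermis. Nitrate can be reduced to nitrite and then to ammonium in either organ, and glutamine synthetase and glutamate synthase bind the ammonium into amino acids that travel between organs.

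The 3 leaf libraries at 100% held 17.0 to 17.7 M counts and the 3 root libraries 14.6 to 16.1 M. A count was found for 19180 to 23120 loci per leaf library, lowest in leaf 1, and for 25836 to 26270 loci per root library. The top 10 genes held 8.23 to 9.85% of a leaf library and 3.19 to 3.56% of a root library. The leaf libraries differed more among themselves than the root libraries, with a biological coefficient of variation of 62.3% in leaf and 28.1% in root. Levels are given as counts per 1000000 counts of the library (CPM), and 3 counts, the floor used for genes with no count, are worth 0.169 to 0.177 CPM in leaf and 0.186 to 0.206 CPM in root. The floor and any counting interval reflect counting error alone.

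The labels were checked against defining genes of the organs. The 5 loci named ribulose bisphosphate carboxylase small chain summed to 734, 1654 and 1166 CPM in leaf 1, 2 and 3 and had no count in any root library. The 28 loci named chlorophyll a-b binding protein summed to 41367, 44110 and 65122 CPM in leaf and to 8.61, 10.9 and 10.2 CPM in root. Of the 4 root markers taken for the check, cortical cell-delineating protein was higher in root, with at most 0.0564 CPM in leaf against 1.78 to 5.15 CPM. Deoxymugineic acid synthase overlapped between the organs. Casparian strip membrane protein (41.9 to 56.9 CPM in leaf, 1.99 to 4.3 CPM in root) and nicotianamine synthase (334 to 671 CPM in leaf, 84.4 to 153 CPM in root) went against the label as named by the automatic annotation. Genes named for flower and pollen summed to 1282 to 1331 CPM in leaf and 2012 to 2192 CPM in root, and those named for the grain to at most 2.37 CPM in either. In bulk tissue, more cells of a type and more RNA per cell cannot be told apart.

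Of the 24046 genes tested, 15157 (63.0%) differed between leaf and root at an adjusted p below 0.05 in edgeR's quasi-likelihood test, the threshold for every call here. Of these, 6386 were higher in leaf (26.6% of the genes tested) and 8771 higher in root (36.5%). A log2 change of at least 1 was estimated for 5302 of the leaf-higher and 7535 of the root-higher genes. The genes called higher in leaf supplied 70.2% of all leaf counts, and those called higher in root 56.3% of all root counts. Leaf RNA was spread over fewer genes, since 616 genes held 50% of the leaf counts and 1335 genes held 50% of the root counts. A mean of at least 5 CPM in root with no count in leaf was found for 620 genes, out of 14924 at that level in root. The opposite was found for 248 genes, out of 12878 at that level in leaf. On the CPM scale the 3 libraries of each organ did not overlap for 4701 genes with leaf higher (19.6%) and 12660 genes with root higher (52.6%). Leaf accounted for 42.1% of the calls in the main fit, 46.1% without leaf 1 and 49.8% with the 6 libraries alone. The 6 libraries alone gave 5950 leaf-higher and 5999 root-higher genes out of 21688 tested, so the excess of root-higher genes depended on the fit. With library size alone in place of the scaling factors of the fit, the leaf share was 28.4%. These factors move a log2 change toward leaf by 0.57 over library size alone, and the median log2 change of all tested genes was -0.32 with them and -0.88 without. A gene with equal CPM in both organs therefore has a positive log2 change in the fit.

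**Figure D1:**
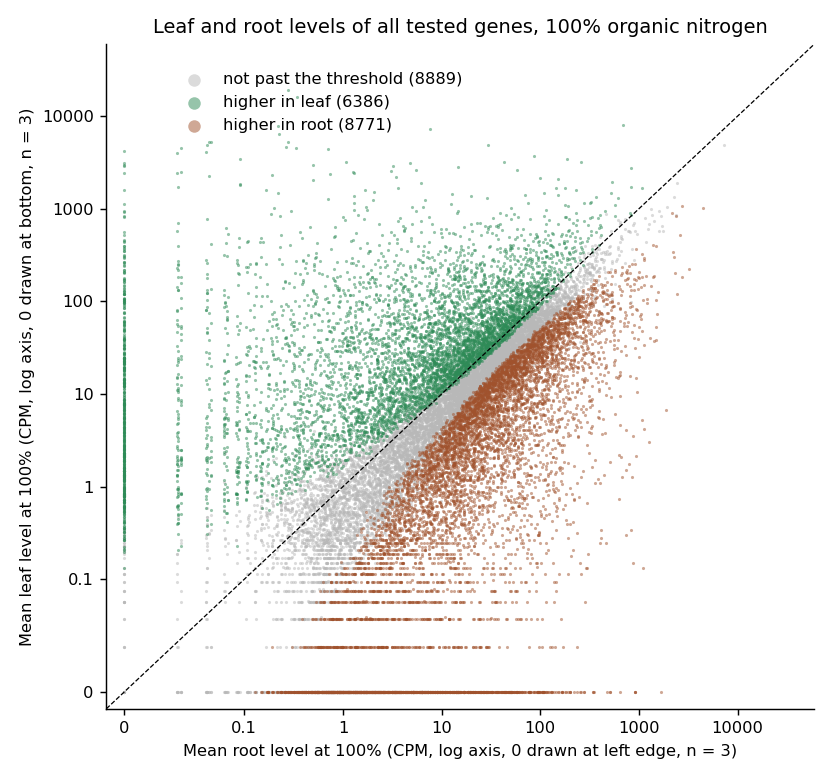
Mean level in root (x axis) against mean level in leaf (y axis) at 100% organic nitrogen for each of the 24046 tested genes, in CPM on log axes, with 0 drawn at the edge and a dashed line of equal levels. Green genes were called higher in leaf (6386) and brown genes higher in root (8771), and the genes at 0 in leaf form a longer line than those at 0 in root.

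High-affinity nitrate uptake was almost entirely a root set. It holds the NRT2 carriers, which move nitrate across the plasma membrane at low supply, and the NAR2 proteins that NRT2 carriers need as partners. Of 12 tested members 10 were higher in root and none in leaf, against 36.5% and 26.6% of all genes. The summed level was 74.8, 124 and 47.7 CPM in leaf and 2562, 1003 and 1605 CPM in root, a 20.9-fold difference of the means. The NAR2 gene with the highest root level per gene length, D1007_44398 (scaffold SDOW01000622.1, 1255826 to 1257034, minus strand), had 0, 3.27 and 2.94 CPM in leaf and 899, 435 and 646 CPM in root (log2 change -7.76 ± 1.01 SE, adjusted p = 8.1e-06). A second NAR2 gene on the same scaffold, D1007_44400 (1657295 to 1658121, minus strand), had no count in leaf and 432, 143 and 253 CPM in root, at least 1607-fold higher (adjusted p = 1.9e-07). Root 1 was highest and root 2 lowest for both. Of the NRT2.1 loci, 6 lie on 2 scaffolds, D1007_62268 and D1007_62269 on one and D1007_60392, D1007_60399, D1007_60400 and D1007_60402 on the other. None of these 6 had a count in leaf, and in root they ranged from 0 to 0.434 CPM (D1007_60400) up to 73.6 to 266 CPM (D1007_62269). Reads of such close copies could be shared or split in counting, so their separate levels are uncertain. The 1 member with a substantial leaf level was NRT2.4, D1007_49225, at 48.9, 77.7 and 23.1 CPM in leaf and 87.4, 26.9 and 74 CPM in root. Its libraries overlapped and it did not pass the test (log2 change 0.22 ± 0.61, adjusted p = 0.77).

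The NRT1/PTR family (NPF), whose members carry nitrate, peptides or hormones at various affinities, was divided between the organs. Of 69 tested members 23 were higher in leaf (33.3%) and 30 higher in root (43.5%), against 26.6% and 36.5% of all tested genes. The summed level was 1673 to 2222 CPM in leaf and 1733 to 2194 CPM in root. Different genes led in each organ. NPF6.4, D1007_17999 (scaffold SDOW01000167.1, 1782557 to 1790214, minus strand), was highest per gene length in leaf, at 669, 539 and 476 CPM against 7.91, 10.5 and 6.89 CPM in root (log2 change 6.62 ± 0.34, adjusted p = 2.8e-10). NPF5.7, D1007_07818, led in root, at 274, 144 and 152 CPM against 0.589, 2.37 and 2.43 CPM in leaf (log2 change -6.17 ± 0.84, adjusted p = 1.3e-05). The largest fitted changes were those of genes without a count in the other organ. NPF6.2, D1007_61272, had 2.77, 8.85 and 30.6 CPM in leaf and no count in root, at least 72.6-fold higher (adjusted p = 0.00021). NPF5.10, D1007_10817, had no count in leaf and 19, 32.2 and 22.1 CPM in root, at least 142-fold higher (adjusted p = 2.6e-06).

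Ammonium transporters carry ammonium into cells. Of 6 tested members 5 were higher in root (83.3%) and none in leaf, against 36.5% and 26.6% of all tested genes. The list summed to 26.5, 68.5 and 12.5 CPM in leaf and 434, 206 and 232 CPM in root. AMT1;2, D1007_05842, had 1.83, 0.169 and 0.508 CPM in leaf and 347, 104 and 100 CPM in root (log2 change -7.24 ± 0.90, adjusted p = 4.9e-06). AMT2;3, D1007_57227, had no count in leaf and 8.17, 3.15 and 5.96 CPM in root, at least 33.5-fold higher (adjusted p = 0.00022). The other 3 root-higher members were AMT2;1, D1007_10500, at 2.26 to 11.7 CPM in leaf and 58.4 to 76.6 CPM in root, and the AMT3;1 copies D1007_48840 and D1007_48843, without a count in leaf and at 6.03 CPM or less in root. AMT3;2, D1007_25386, overlapped, at 13, 63.2 and 9.77 CPM in leaf and 7.79, 31 and 49.5 CPM in root (adjusted p = 0.55).

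Of 2 nitrate reductases, which reduce nitrate to nitrite, the NAD(P)H gene was higher in root and the NADH gene had substantial levels in both organs. The nitrite reductase that follows them overlapped between the organs. NAD(P)H nitrate reductase, D1007_08787 (scaffold SDOW01000066.1, 7720677 to 7724047, plus strand), had 0.295, 2.71 and 0.847 CPM in leaf and 784, 609 and 609 CPM in root (log2 change -8.47 ± 0.70, adjusted p = 2e-07). NADH nitrate reductase, D1007_31007 (scaffold SDOW01000340.1, 954247 to 959135, plus strand), had 274, 367 and 717 CPM in leaf and 259, 57.4 and 200 CPM in root. Its leaf libraries all lay above its root libraries, and the log2 change was 1.97 ± 0.64 (adjusted p = 0.015). That call was lost without leaf 3 (log2 change 1.49, adjusted p = 0.066), without root 2 (1.55, adjusted p = 0.06), with library size alone (1.40, adjusted p = 0.055) and against a minimum log2 change of 1 (adjusted p = 0.061). Ferredoxin-nitrite reductase, D1007_08673 (3678579 to 3681627 on the scaffold of the NAD(P)H enzyme, minus strand), overlapped, at 465, 521 and 1160 CPM in leaf and 971, 240 and 699 CPM in root (log2 change 0.74 ± 0.48, adjusted p = 0.19).

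In ammonium assimilation the gene with the highest level per gene length differed between the organs. Of 13 tested members 11 were higher in root (84.6%) and 1 in leaf (7.69%), against 36.5% and 26.6% of all tested genes. The list summed to 1715 to 2083 CPM in leaf and 4280 to 7062 CPM in root. The 1 leaf-higher member was GS2, the chloroplast glutamine synthetase, D1007_32310 (scaffold SDOW01000362.1, 1258612 to 1262401, plus strand), at 1171, 1592 and 1447 CPM in leaf and 257, 81.8 and 112 CPM in root (log2 change 3.77 ± 0.42, adjusted p = 1.5e-06). Another glutamine synthetase, D1007_38808 (scaffold SDOW01000489.1, 307110 to 311018, minus strand), was highest per gene length in root, at 410, 299 and 192 CPM in leaf and 1886, 2619 and 2243 CPM in root (log2 change -2.34 ± 0.40, adjusted p = 0.00013). Cytosolic isozymes 1-2, D1007_33459, and 1-3, D1007_39205, were also root-higher, with 532 to 1491 CPM and 115 to 165 CPM in root. NADH glutamate synthase, D1007_59671, which returns the amide nitrogen of glutamine to glutamate, had 36.1, 21.7 and 35.7 CPM in leaf and 1050, 225 and 515 CPM in root (log2 change -3.70 ± 0.62, adjusted p = 9.8e-05). Asparagine synthetase 1, D1007_37625 (scaffold SDOW01000462.1, 1768371 to 1772180, minus strand), which makes the transport amide asparagine, was near absent from leaf, at 0, 0.282 and 0.169 CPM, and had 1438, 318 and 838 CPM in root (log2 change -11.87 ± 1.30, adjusted p = 1.3e-06). Root 1 was highest and root 2 lowest for the last 2 genes and for isozyme 1-2 root 1 was highest. Both mitochondrial glutamate dehydrogenases, D1007_27147 and D1007_18327, had 78.7 to 174 CPM in root and 2 to 8.4 CPM in leaf and were called higher in root. The fluG-like locus D1007_37026 did not pass the test (adjusted p = 0.14).

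Aminotransferases, which pass amino groups between amino and keto acids, were about evenly divided by count. Leaf was higher for 17 of 47 (36.2%) and root for 16 (34.0%), against 26.6% and 36.5% of all tested genes. The balance turned to 11 against 21 with library size alone. By summed level leaf was higher, at 11406 to 14293 CPM against 3924 to 3964 CPM in root. Serine-glyoxylate aminotransferase of photorespiration, D1007_21018 (scaffold SDOW01000206.1, 527411 to 529514, plus strand), supplied most of this, at 6551, 6783 and 8377 CPM in leaf and 11, 6.58 and 5.34 CPM in root (log2 change 10.44 ± 0.79, adjusted p = 1.8e-08). The root leader per gene length was the alanine-glyoxylate aminotransferase 2 homolog D1007_53835, at 3.71, 13.5 and 11.1 CPM in leaf and 472, 808 and 641 CPM in root (log2 change -5.52 ± 0.56, adjusted p = 5.5e-07). A D-amino-acid transaminase homolog, D1007_60434, had the largest root-ward change, with 0 to 2.76 CPM in leaf and 149 to 194 CPM in root (log2 change -6.73 ± 0.85, adjusted p = 5.9e-06).

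Amino acid and oligopeptide transporters were also divided by count, with 31 of 81 higher in leaf (38.3%) and 29 in root (35.8%). Over all tested genes the shares were 26.6% and 36.5%. With library size alone the counts were 23 and 34. The list's summed level was higher in root, at 2722, 2390 and 3026 CPM against 2245, 1902 and 1719 CPM in leaf. Amino acid permease 7, D1007_08861, led in leaf, at 274, 326 and 290 CPM against 113, 102 and 153 CPM in root (log2 change 1.85 ± 0.28, adjusted p = 3.9e-05). The vacuolar carrier CAT2, D1007_39707, led in root, at 276, 195 and 418 CPM against 118, 106 and 137 CPM in leaf (log2 change -0.72 ± 0.28, adjusted p = 0.035). Its call was lost with the 6 libraries alone (adjusted p = 0.17), against a minimum log2 change of 1, and without leaf 1 (0.1), leaf 2 (0.11), root 1 (0.061) or root 3 (0.2). Oligopeptide transporter 4, D1007_51225, had 22.7, 6.76 and 8.69 CPM in leaf and no count in root, at least 65.7-fold higher (adjusted p = 5.7e-06). Amino acid permease 3, D1007_01731, had no count in leaf and 33.2, 9.18 and 19.7 CPM in root, at least 121-fold higher (adjusted p = 6.9e-05).

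Genes of urea and ureide metabolism, which release the nitrogen of urea and of purine breakdown, mostly did not pass the test. Of 15 tested members 3 were higher in leaf, 1 in root and 11 did not pass. With library size alone 2 were higher in leaf and 3 in root. The sums overlapped, at 733 to 1911 CPM in leaf and 1016 to 1413 CPM in root. Urease, D1007_07839, had 82.4, 122 and 72 CPM in leaf and 107, 127 and 121 CPM in root (log2 change 0.20 ± 0.21, adjusted p = 0.42). The urea carrier DUR3, D1007_41289, had 29.1, 26.1 and 8.24 CPM in leaf and 32.5, 38.7 and 47.8 CPM in root (log2 change -0.34 ± 0.50, adjusted p = 0.56). Neither gene's p shows that the organs are alike. Allantoate deiminase, D1007_57662, had the highest level per gene length in both organs, at 1388, 613 and 291 CPM in leaf and 472, 762 and 602 CPM in root (log2 change 0.89 ± 0.51, adjusted p = 0.14), and passed only without leaf 3 (log2 change 1.29, adjusted p = 0.028). Urease accessory protein G, D1007_58100, was higher in leaf (3.16 to 6.78 CPM against 0.274 to 0.823 CPM, adjusted p = 5.2e-06). Ureide permease 2, D1007_07614, was higher in root (114 to 175 CPM against 8.3 to 21.6 CPM, adjusted p = 6.7e-05).

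**Figure D2:**
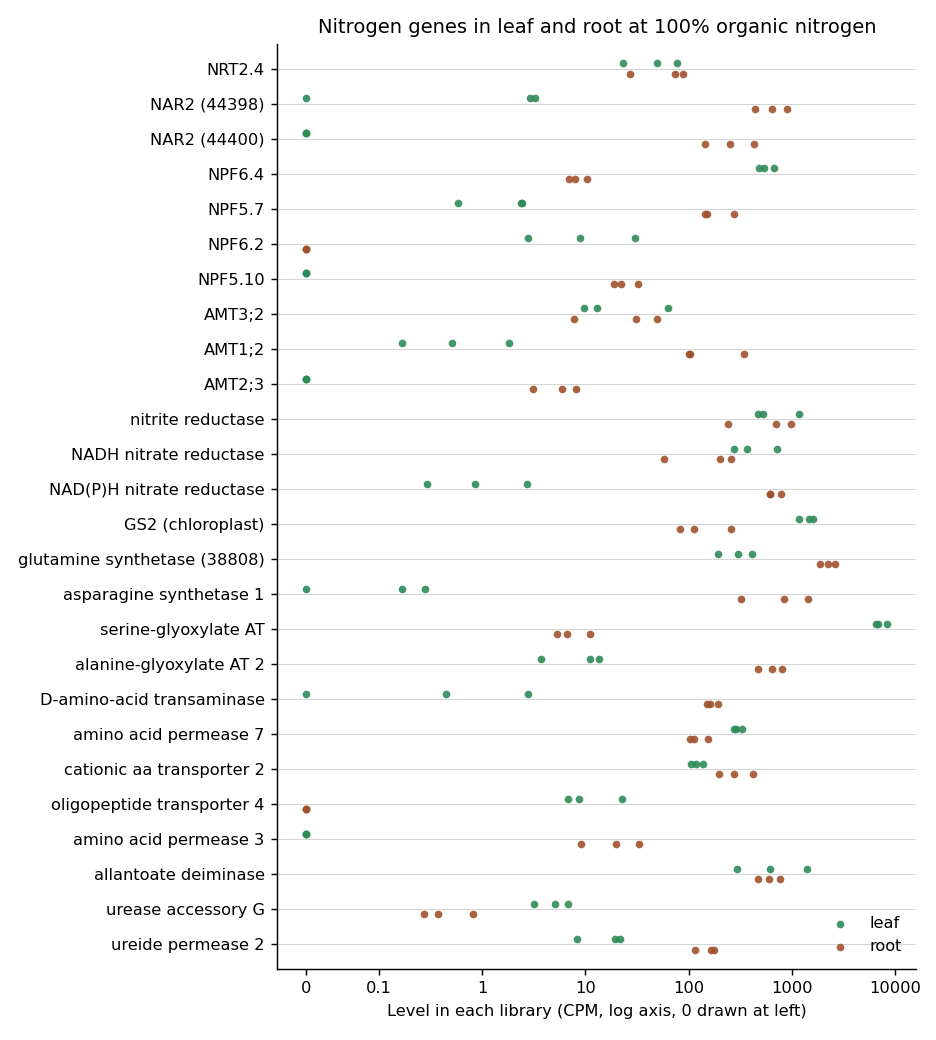
Level of the nitrogen genes named by rule in each of the 3 leaf (green) and 3 root (brown) libraries at 100% organic nitrogen, in CPM on a log axis with 0 drawn at the left. Leaf and root points stand far apart for the NAR2 genes, NAD(P)H nitrate reductase, asparagine synthetase 1 and serine-glyoxylate aminotransferase, and overlap for NRT2.4, AMT3;2, nitrite reductase and allantoate deiminase.

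Photosynthesis was the clearest leaf division. Of 59 tested genes of the photosystems and light harvesting, 57 were higher in leaf and none in root, and they summed to 73320, 82989 and 108803 CPM in leaf and 39.1, 48.3 and 44.9 CPM in root. They made up 8.84% of leaf counts and 0.00441% of root counts. The highest was a chlorophyll a/b-binding protein, D1007_43312 (scaffold SDOW01000586.1, 1886815 to 1887615, plus strand), at 14713, 11114 and 22324 CPM in leaf and 0.317, 0.411 and 0.31 CPM in root (log2 change 16.05 ± 0.72, adjusted p = 1.1e-10). The member with the highest root level was a light-harvesting-like protein 3, D1007_61729, at 20.8, 23.3 and 20.5 CPM in root, and it was still higher in leaf at 123, 231 and 236 CPM (adjusted p = 9.6e-09). The list's median log2 change was 12.46, or 10.84 with organs lacking any count set at the floor, against -0.32 and -0.29 over all genes.

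Carbon fixation and the pathways around it followed. In the Calvin cycle, 21 of 22 genes were higher in leaf and 1 in root, with sums of 46581, 48456 and 47665 CPM in leaf and 1646, 829 and 1371 CPM in root. A Rubisco small subunit, D1007_36511 (scaffold SDOW01000440.1, 2644774 to 2645408, plus strand), led in leaf, at 5587, 8588 and 4939 CPM against 0.0633, 0.617 and 0 CPM in root (log2 change 15.33 ± 1.26, adjusted p = 5e-08). Close copies of this gene could share its reads. Chloroplast transketolase, D1007_26741, supplied most of the root sum, at 1432, 597 and 1159 CPM in root and 1198, 1614 and 2152 CPM in leaf. Its CPM overlapped between the organs and its leaf-higher call (log2 change 1.20 ± 0.42, adjusted p = 0.02) was lost without leaf 3 (1.00, adjusted p = 0.073), without root 2 (0.91, adjusted p = 0.091), with library size alone and against a minimum log2 change of 1.

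Photorespiration, which recovers carbon from the oxygenase reaction of Rubisco and releases ammonium, had 12 of 22 genes higher in leaf and 5 in root, yet its sums were 28181 to 33224 CPM in leaf and 1679 to 1758 CPM in root. The core enzymes were leaf genes. Glycolate oxidase GLO1, D1007_28237 (scaffold SDOW01000302.1, 895494 to 902106, minus strand), had 6473, 9167 and 7994 CPM in leaf and 0.253, 0.343 and 0.0621 CPM in root (log2 change 15.65 ± 0.85, adjusted p = 4.9e-10). The P subunit of glycine decarboxylase, D1007_50390, the step that releases ammonium, had 8411, 7615 and 8169 CPM in leaf and 720, 679 and 650 CPM in root (log2 change 4.13 ± 0.32, adjusted p = 2.5e-08). Root had its own isoforms, such as oxidase GLO3, D1007_40843, at 89.2 to 117 CPM in root and 0.0589 to 5.52 CPM in leaf, and the glycine cleavage H protein D1007_35101, at 42.9 to 49.6 CPM in root and 1.65 to 2.48 CPM in leaf. Both were called higher in root and were chosen after their values were seen.

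Of 24 genes of chlorophyll synthesis and breakdown 20 were higher in leaf and 2 in root. Geranylgeranyl reductase, D1007_05720, which makes the phytol tail, had 1619, 2592 and 1909 CPM in leaf and 0.95, 0.548 and 0 CPM in root (log2 change 12.52 ± 0.90, adjusted p = 1.1e-08). Glutamyl-tRNA reductase 3, D1007_45380, an enzyme of the first committed step toward heme and chlorophyll, was a root gene, at 377, 412 and 257 CPM against 31.6, 31.2 and 14 CPM in leaf (log2 change -3.22 ± 0.33, adjusted p = 6.6e-07). Plastid ribosomal proteins were higher in leaf for 35 of 43 and in root for 4, with sums of 5689 to 8114 CPM and 289 to 322 CPM. L12-2, D1007_02723, led in leaf (255 to 383 CPM against 2.41 to 2.74 CPM, adjusted p = 2.9e-10). S16-2, D1007_55006, led in root (28.7 to 35.4 CPM against 3.01 to 13.1 CPM, log2 change -1.19 ± 0.34, adjusted p = 0.0062), a call lost with the 6 libraries alone (adjusted p = 0.12) and against a minimum log2 change of 1. Of the CONSTANS-like, GLK and plastid sigma factors, regulators of light responses and chloroplast genes, 30 of 50 were higher in leaf and 7 in root, led by CO3, D1007_53509, at 1101, 1183 and 1428 CPM in leaf and 1.85 to 2.34 CPM in root (adjusted p = 6.8e-11).

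Starch and sucrose synthesis leaned to leaf, with 20 of 33 genes higher in leaf (60.6%) and 7 in root (21.2%). Over all tested genes the shares were 26.6% and 36.5%. The list summed to 3146 to 4111 CPM in leaf and 1339 to 1415 CPM in root. Sucrose-phosphate synthase 5, D1007_02072, which makes the sucrose that leaves export, was the highest per gene length in both organs, at 925, 1135 and 1506 CPM in leaf and 290, 391 and 297 CPM in root (log2 change 2.43 ± 0.28, adjusted p = 2.4e-06). Genes of sucrose synthase, fermentation and hemoglobin were more often higher in root than in leaf. Of 19 tested genes of sucrose synthase, alcohol dehydrogenase and related fermentation, and hemoglobin, 11 were higher in root (57.9%) and 3 in leaf (15.8%). The list summed to 291 to 509 CPM in leaf and 1783 to 2878 CPM in root. Sucrose synthase 1, D1007_25299, had 86.5, 66.7 and 165 CPM in leaf and 1757, 779 and 1073 CPM in root (log2 change -2.94 ± 0.44, adjusted p = 2.9e-05). The leaf leader of that list was alcohol dehydrogenase class-3, D1007_55592, at 104 to 136 CPM against 67.9 to 81.8 CPM (adjusted p = 7.3e-06), which despite its name acts on formaldehyde bound to glutathione. Sugar carriers had 20 of 58 members higher in leaf (34.5%) and 23 in root (39.7%), near the 26.6% and 36.5% of all tested genes. Sums of the sugar carriers overlapped. Their highest gene per length in both organs, polyol transporter 5, D1007_10517, at 264, 675 and 163 CPM in leaf and 263, 382 and 478 CPM in root, did not pass (adjusted p = 0.26) except without leaf 3 (adjusted p = 0.044).

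Phosphate carriers and SPX proteins were higher in root for 9 of 21 (42.9%) and in leaf for 5 (23.8%). These shares lay near those of all tested genes (36.5% and 26.6%). The list summed to 549 to 1410 CPM in leaf and 2764 to 3783 CPM in root. Most of the root sum came from PHO1-2, D1007_34928 (scaffold SDOW01000412.1, 3028667 to 3034586, plus strand), at 1706, 1717 and 2236 CPM in root and 4.77, 7.61 and 7.56 CPM in leaf (log2 change -7.58 ± 0.99, adjusted p = 8.6e-06). In Arabidopsis and rice, PHO1 proteins export phosphate to the xylem. SPX domain protein 6, D1007_00679, led in leaf only through leaf 2, at 20.6, 380 and 34.7 CPM, with 122, 242 and 289 CPM in root (adjusted p = 0.98).

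Sulfate uptake and assimilation had 12 of 31 genes higher in leaf (38.7%) and 5 in root (16.1%), with overlapping sums. Over all tested genes the shares were 26.6% and 36.5%. Successive steps led in different organs. ATP sulfurylase 4, D1007_05175, which activates sulfate, had 205, 203 and 195 CPM in leaf and 2895, 1977 and 2081 CPM in root (log2 change -2.97 ± 0.32, adjusted p = 1e-06). Adenylylsulfate reductase 1, D1007_25844, which reduces the activated sulfate, had 1309, 1734 and 1962 CPM in leaf and 247, 71.1 and 114 CPM in root (log2 change 4.08 ± 0.54, adjusted p = 9.2e-06).

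Potassium transport was higher in leaf for 13 of 47 genes (27.7%) and in root for 19 (40.4%), near the shares of all tested genes (26.6% and 36.5%). The balance was 9 to 21 with library size alone and 15 to 13 with the 6 libraries alone. The list's summed level was higher in root, at 2660, 2860 and 2747 CPM against 2154, 2039 and 1959 CPM in leaf. The chloroplast antiporter KEA3, D1007_53113, led in leaf at 632, 621 and 559 CPM against 7.22 to 12.7 CPM in root (adjusted p = 5.8e-11). HKT8, D1007_49775 (scaffold SDOW01000780.1, 1033364 to 1035234, minus strand), whose rice counterpart takes sodium out of the xylem sap, led in root at 281, 592 and 354 CPM against 0, 0.451 and 0.395 CPM in leaf (log2 change -9.89 ± 1.16, adjusted p = 6.3e-06). Iron and zinc genes were divided 19 to 20 out of 60 (31.7% and 33.3%), and 14 to 25 with library size alone. Their summed level was higher in leaf, at 3990, 4880 and 4606 CPM against 2351, 2202 and 2528 CPM in root. Ferric reductase FRO7, D1007_34780, known from Arabidopsis chloroplasts, had 1285, 1953 and 2499 CPM in leaf and 6.08 to 6.51 CPM in root (log2 change 8.82 ± 0.76, adjusted p = 8.1e-08). Ferritin-1, D1007_13458, which stores iron, led in root per gene length at 326 to 428 CPM and yet was higher in leaf at 358 to 733 CPM (log2 change 1.18 ± 0.33, adjusted p = 0.0057), a call lost with library size alone (adjusted p = 0.096) and against a minimum log2 change of 1. Aquaporins were higher in leaf for 12 of 35 (34.3%) and in root for 15 (42.9%). The balance was 12 to 10 among genes with at least 5 CPM in 3 libraries and 12 to 12 with the 6 libraries alone. The summed level of aquaporins was higher in leaf, at 4349, 7342 and 8715 CPM against 3682, 3064 and 4142 CPM in root. TIP1-2 of the vacuole membrane, D1007_52879, led in leaf at 768, 1421 and 1825 CPM against 215 to 472 CPM (adjusted p = 0.00021). The PIP1-5 locus assembled from reads at 516869 to 518369 on scaffold SDOW01000695.1 (minus strand) led in root at 796, 949 and 927 CPM and had 408, 1005 and 703 CPM in leaf (adjusted p = 0.5).

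Root wall and barrier genes followed in the opposite direction to photosynthesis. Class III peroxidases, secreted enzymes that couple and stiffen wall phenolics, were higher in root for 59 of 87 genes and in leaf for 11, with sums of 643, 683 and 510 CPM in leaf and 4691, 4574 and 5466 CPM in root. Peroxidase N, D1007_24083 (scaffold SDOW01000244.1, 131966 to 133908, plus strand), had 0, 0.394 and 0 CPM in leaf and 1084, 1013 and 1235 CPM in root (log2 change -12.40 ± 0.83, adjusted p = 5e-09). Peroxidase 51, D1007_37159, led in leaf at 326, 327 and 233 CPM against 71.4 to 82.9 CPM in root (adjusted p = 0.00016). The median log2 change of the list was -6.31, or -2.94 with organs lacking any count set at the floor.

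Phenylpropanoid and lignin genes were higher in root for 54 of 88 and in leaf for 12, and summed to 1716 to 2329 CPM in leaf and 11131 to 11691 CPM in root. Their highest gene per length in both organs, the O-methyltransferase D1007_43065, did not pass (270 to 371 CPM in leaf, 586 to 646 CPM in root, adjusted p = 0.2) except with library size alone (adjusted p = 0.0059). Cellulose synthases were higher in root for 6 of 10 and none in leaf. The subunit 8 homolog D1007_07026 had 49.5, 84 and 56.4 CPM in leaf and 405, 406 and 381 CPM in root (log2 change -2.09 ± 0.29, adjusted p = 1.5e-05). A subunit 1 homolog, D1007_59142, spread widely in leaf, at 192, 63.3 and 18.4 CPM, against 222, 185 and 155 CPM in root (adjusted p = 0.49), and passed only without leaf 1 (log2 change -1.57, adjusted p = 0.019). The 3 secondary wall subunits, CESA9 D1007_24041, CESA4 D1007_03347 and CESA7 D1007_35265, had 10.1 to 32.9 CPM in root and at most 0.169 CPM in leaf.

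Casparian strip and suberin genes, of the barriers around the root's vascular cylinder, were higher in root for 31 of 64 (48.4%) and in leaf for 11 (17.2%). Over all tested genes the shares were 36.5% and 26.6%. The list summed to 362 to 445 CPM in leaf and 934 to 1106 CPM in root. CASP-like 1D1, D1007_04149, had no count in leaf and 122, 111 and 233 CPM in root, at least 905-fold higher (adjusted p = 4.3e-07). The locus annotated as Casparian strip membrane protein 2, D1007_59456, was a leaf gene, at 37.2, 49 and 55.4 CPM against a single count in the root libraries (ratio 2201, 95% counting interval 395 to 86980, adjusted p = 5.9e-06). Expansins and wall-remodelling enzymes were higher in root for 36 of 80 and in leaf for 12, led in root by endoglucanase 12, D1007_61590, at 1404, 1459 and 1052 CPM against 56.4, 35.4 and 28.8 CPM (adjusted p = 3.6e-09). Flavonoid genes were split 18 to 18 out of 53, a balance that moved to 15 leaf-higher and 20 root-higher with library size alone. Their summed level was higher in root, at 1525, 1889 and 1585 CPM against 937, 1294 and 1272 CPM in leaf.

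**Figure D3:**
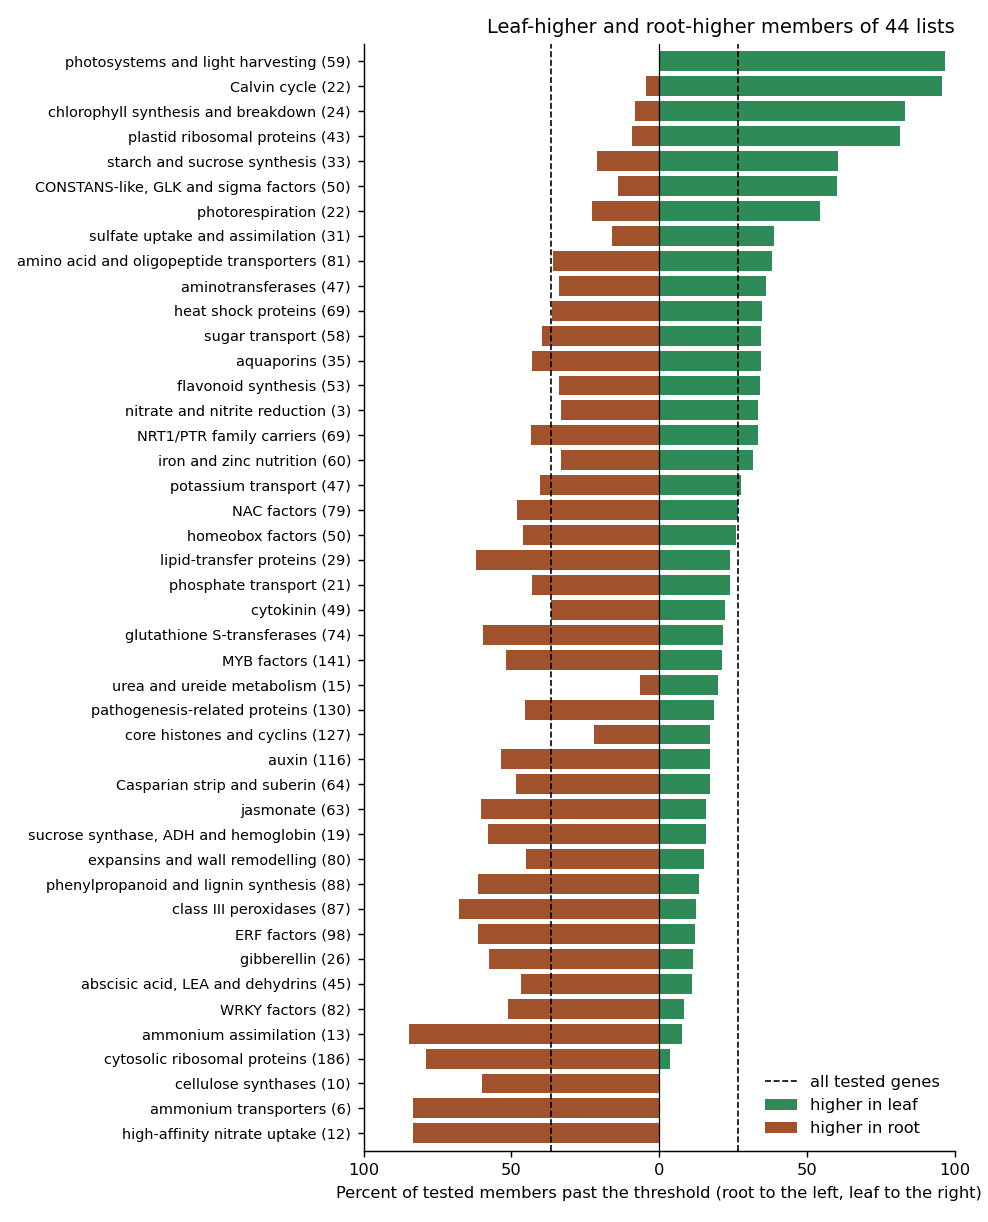
Percent of the tested members of each of 44 gene lists that were called higher in root (brown, to the left) or higher in leaf (green, to the right), with the number of tested members in parentheses and dashed lines at the shares of all tested genes (36.5% and 26.6%). Photosystems, the Calvin cycle, chlorophyll and plastid ribosomal lists lie far to the leaf side, and high-affinity nitrate uptake, ammonium transporters, ammonium assimilation and cytosolic ribosomal proteins far to the root side.

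Root-higher genes made up 59.5% of glutathione S-transferases, 45.4% of pathogenesis-related proteins and 62.1% of lipid-transfer proteins, against 36.5% of all tested genes. Leaf-higher genes made up 21.6, 18.5 and 24.1% of these lists, against 26.6%. Heat shock proteins had 36.2% higher in root, near the share of all genes, and 34.8% in leaf. Glutathione S-transferases were higher in root for 44 of 74 and in leaf for 16, although their sums differed by only 1.58-fold. GSTF1, D1007_26461, led in leaf (396 to 453 CPM against 158 to 192 CPM, adjusted p = 0.00013), and the glutathione S-transferase 1 locus assembled from reads at 2425071 to 2428269 on scaffold SDOW01000139.1 (minus strand) led in root (449 to 600 CPM against 41 to 110 CPM, adjusted p = 2.1e-05). Pathogenesis-related proteins were higher in root for 59 of 130 and in leaf for 24. The thaumatin-like protein D1007_25763 had 0.354, 0.62 and 0.0564 CPM in leaf and 809, 908 and 791 CPM in root (log2 change -10.67 ± 0.70, adjusted p = 3.5e-09). Lipid-transfer proteins, small secreted proteins that bind lipids, were higher in root for 18 of 29 and in leaf for 7. Lipid-transfer protein 2, D1007_00410, led in leaf (82.1, 378 and 325 CPM against 4.49 to 12.1 CPM, adjusted p = 2.6e-05). Another, D1007_58183 (scaffold SDOW01001151.1, 507171 to 507647, plus strand), had no count in leaf and 950, 906 and 848 CPM in root, at least 5248-fold higher (adjusted p = 1.7e-07). Heat shock proteins were divided 24 to 25 out of 69. Their summed level was higher in leaf, at 8970, 7653 and 8857 CPM against 6739, 5993 and 6064 CPM in root. HSP81-1, D1007_15474, was higher in leaf (1767, 1006 and 1629 CPM against 478 to 556 CPM, adjusted p = 3.8e-06), and HSP70-4, D1007_49259, reached 1312 to 1435 CPM in root and 600 to 1017 CPM in leaf (log2 change -0.11 ± 0.26, adjusted p = 0.73), passing only with library size alone (adjusted p = 0.037).

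Auxin, jasmonate, gibberellin and abscisic acid lists held larger shares of root-higher genes (46.7 to 60.3%) than all tested genes did (36.5%), and the cytokinin list did not (36.7%). The members higher in root and in leaf were 62 and 20 of 116 for auxin, 38 and 10 of 63 for jasmonate, 15 and 3 of 26 for gibberellin, 21 and 5 of 45 for abscisic acid with LEA proteins and dehydrins, and 18 and 11 of 49 for cytokinin. The auxin-conjugating enzyme GH3.8, D1007_19264 (scaffold SDOW01000183.1, 1368467 to 1370904, plus strand), had 1.47, 8.96 and 1.98 CPM in leaf and 1120, 1254 and 967 CPM in root (log2 change -7.53 ± 0.88, adjusted p = 2.5e-06). The abscisic acid list went the other way by sum, 3453 to 8931 CPM in leaf and 1825 to 2118 CPM in root. Most of the leaf sum came from NCED1, D1007_28942 (scaffold SDOW01000312.1, 1694391 to 1696322, plus strand), an enzyme of the rate-limiting cleavage toward abscisic acid, which had 4679, 2821 and 8260 CPM in leaf and 0.0633, 0.343 and 0.434 CPM in root (log2 change 14.74 ± 0.82, adjusted p = 6e-10). Among jasmonate genes the repressor TIFY 11b, D1007_21563, was highest per gene length in both organs, at 350, 163 and 30.4 CPM in leaf and 998, 1125 and 834 CPM in root (log2 change -1.89 ± 0.66, adjusted p = 0.021), a call lost without leaf 2 (-1.80, adjusted p = 0.059), with the 6 libraries alone (adjusted p = 0.1) and against a minimum log2 change of 1 (adjusted p = 0.081).

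Root-higher shares of the regulator lists outside the chloroplast group were 46.0% (homeobox) to 61.2% (ERF), against 36.5% of all tested genes. Leaf-higher shares were 8.54% (WRKY) to 26.6% (NAC), against 26.6%. The members higher in root and in leaf were 42 and 7 of 82 for WRKY, 38 and 21 of 79 for NAC, 73 and 30 of 141 for MYB, 60 and 12 of 98 for ERF, and 23 and 13 of 50 for homeobox factors. WRKY71, D1007_57881, had 378, 148 and 43 CPM in leaf and 1200, 1275 and 1046 CPM in root (log2 change -2.07 ± 0.58, adjusted p = 0.0061), a call lost with the 6 libraries alone (adjusted p = 0.064). ERF3, D1007_36741, had 67.6, 163 and 11.1 CPM in leaf and 900, 1094 and 841 CPM in root (log2 change -3.02 ± 0.60, adjusted p = 0.00041). NAC83, D1007_09503, was higher in leaf, at 459, 198 and 469 CPM against 39.7 to 62.7 CPM (log2 change 3.46 ± 0.33, adjusted p = 2.5e-07). For WRKY71 and ERF3 the 3 leaf libraries differed by several fold, and leaf 3 was lowest for each.

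Of 186 tested cytosolic ribosomal proteins, the machinery of protein synthesis, 147 were higher in root (79.0%) and 7 in leaf (3.76%). Over all tested genes the shares were 36.5% and 26.6%. The list's median log2 change was -1.08. The list summed to 5202, 8620 and 8093 CPM in leaf and 22602, 20530 and 21078 CPM in root, or 0.731% and 2.14% of the counts. L27a-3, D1007_00657, led in root at 472, 468 and 425 CPM against 69.4, 125 and 127 CPM (log2 change -1.52 ± 0.28, adjusted p = 0.00021). Core histones and cyclins gave no stable direction by count. Root was higher for 28 of 127 and leaf for 22, both below the shares of all genes. The counts were 23 and 27 without leaf 1, and 16 and 19 with the 6 libraries alone. The list's summed level was higher in root, at 2710, 3723 and 4400 CPM against 1110, 1647 and 1782 CPM in leaf. Histone H3.3, D1007_25288, was highest per gene length in both organs, at 96.5, 125 and 72 CPM in leaf and 445, 518 and 562 CPM in root (adjusted p = 2.5e-05).

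Changes were next ranked among called genes with an informative description, no overlap of the organs' libraries and at least 50 CPM in the higher organ. Loci described only as hypothetical or uncharacterized were thus left out. Among the genes so ranked, the 5 largest leaf-ward changes were those of chloroplast proteins without a count in root. They were chlorophyll a-b binding protein 1, D1007_59315 (2870, 5167 and 4458 CPM), aldolase, D1007_32831 (2792, 3720 and 2896 CPM), plastocyanin, D1007_33193 (2021, 3386 and 3465 CPM), oxygen-evolving enhancer protein 2, D1007_53488 (2289, 2685 and 3620 CPM), and photosystem I subunit II, D1007_50003 (1840, 2298 and 3182 CPM). Each was at least 12584-fold higher in leaf. In the same ranking, the 5 largest root-ward changes were those of proteins of the wall, the cell surface and silicon export without a count in leaf. Germin-like protein 4-1, D1007_54867 (scaffold SDOW01000968.1, 1129190 to 1133373, minus strand), had 1422, 1672 and 1898 CPM in root, and its neighbour D1007_54869, of the same name, had 903, 666 and 1142 CPM. The silicon exporter LSI2, D1007_17613 (scaffold SDOW01000161.1, 1600959 to 1603621, minus strand), which in rice moves silicon toward the xylem, had 663, 953 and 1140 CPM. Peroxidase N, D1007_42212, had 464, 485 and 563 CPM, and the lipid-transfer protein D1007_58183, described above, was the other. They were at least 2937- to 9690-fold higher in root.

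The gene with the highest level per gene length differed between the organs in 36 of the 44 lists and was the same in 8. A differing root leader need not be a root-higher gene, since the light-harvesting-like protein 3 and ferritin-1 led their lists in root and were higher in leaf. By summed level, 12 lists were higher in leaf and 26 higher in root without overlap of the libraries, and 6 overlapped.

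**Figure D4:**
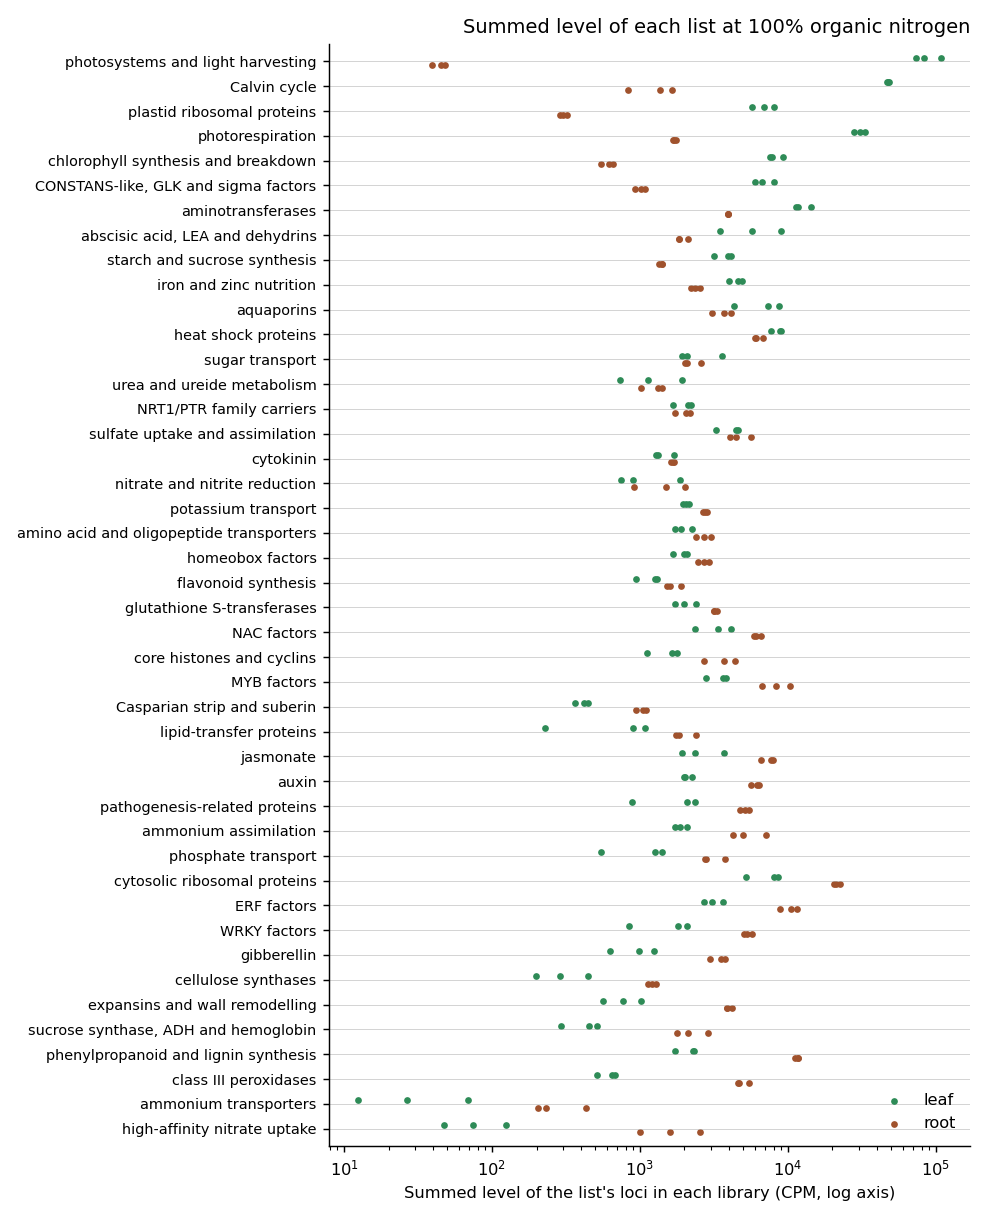
Summed level of all loci of each of the 44 lists in each leaf (green) and root (brown) library at 100% organic nitrogen, in CPM on a log axis, ordered by the ratio of the organs' means. The 12 lists at the top are higher in leaf and the 26 lists at the bottom side higher in root without overlap, and the leaf points of several stress and regulator lists spread more than the root points.

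The difference between leaf and root at 100% was then set against the same difference in plants at 0% and 40%, as an interaction term of the same fit. These comparisons share the 100% libraries with the leaf-root comparison above. Against 0%, 3834 genes passed (15.9%), of which 2092 had a higher leaf-minus-root difference at 100% (8.70%) and 1742 a lower one (7.24%). Against 40%, 2762 genes passed (11.5%), with 1719 higher (7.15%) and 1043 lower (4.34%). The balance depended on scaling, since 54.6% of the calls against 0% and 62.2% of those against 40% were higher with the factors of the fit and 30.2% and 34.9% with library size alone. Both counts against 0% and both against 40% fell by over 1.5 times in fits that left out some single libraries. Against 0% the lower count was 1146 without 0% leaf 3, 1144, 1081 and 1161 without 0% root 1, 2 and 3, and 1155 and 1092 without 100% root 1 and 3, and the higher count was 1338 without 100% root 3. Against 40% the lower count was 526 without 40% leaf 1, 628, 580 and 640 without 40% root 1, 2 and 3, 646 without 100% leaf 1, and 562 and 580 without 100% root 1 and 3, and the higher count was 1139 without 40% root 2 and 1054 and 971 without 100% root 1 and 3.

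**Figure D5:**
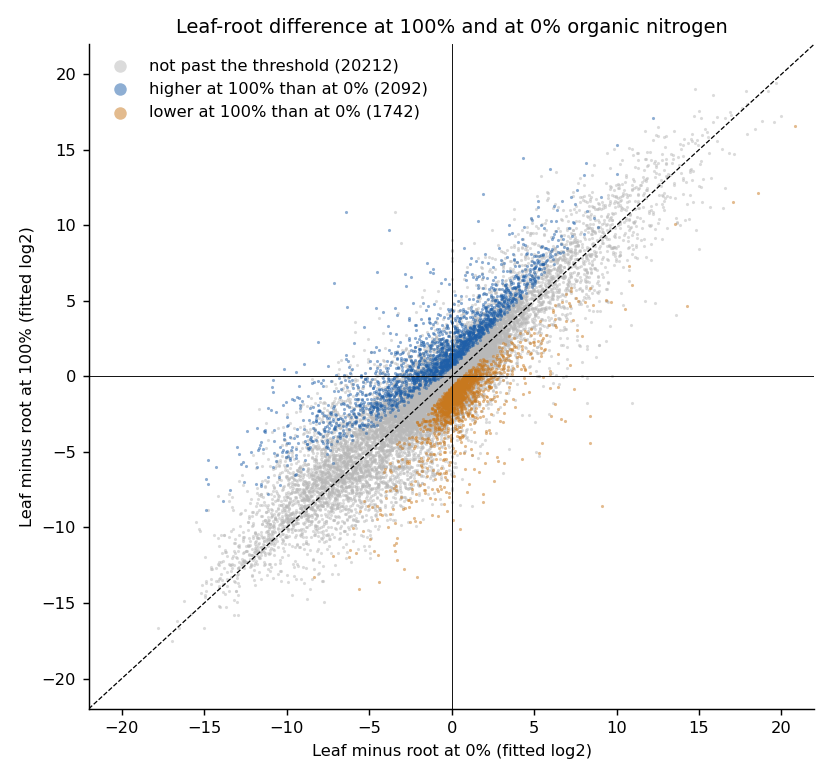
Fitted leaf-minus-root log2 difference of each tested gene at 0% (x axis) and at 100% organic nitrogen (y axis), with a dashed line of equal differences. Blue genes (2092) had a higher and orange genes (1742) a lower difference at 100% than at 0%, and most genes keep the same side of 0 at both rates. Fitted values of genes without a count in an organ depend on the prior count.

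Nitrogen genes stood on both sides. NADH nitrate reductase, D1007_31007, had a root-higher level at 0%, 3.21 ± 2.37 CPM in leaf and 87.9 ± 23 CPM in root (SD, n = 3), and at 40%, 2.44 ± 1.04 and 109 ± 41 CPM, against 453 ± 234 and 172 ± 103 CPM at 100%. Its difference was higher at 100% by 6.54 ± 0.97 log2 than at 0% (adjusted p = 0.00075) and by 7.18 than at 40% (adjusted p = 0.00097). Nitrite reductase, D1007_08673, had a higher mean in both organs at 100% (716 and 637 CPM) than at 0% (153 and 130 CPM), and its organ difference did not pass (log2 0.29, adjusted p = 0.86). Glutamine synthetase D1007_38808 had 1602 ± 856 CPM in leaf and 1687 ± 107 CPM in root at 0% and 300 ± 109 and 2249 ± 366 CPM at 100%, a change of the log2 difference of -2.49 ± 0.55 (adjusted p = 0.0077). Alanine-glyoxylate aminotransferase 2, D1007_53835, and ureide permease 2, D1007_07614, also had lower differences, with changes of -4.02 (adjusted p = 0.0016) and -2.31 (adjusted p = 0.014). Asparagine synthetase 1, D1007_37625, passed at -4.66 ± 1.44 (adjusted p = 0.039) but with a mean of at most 1.67 CPM in leaf at either rate, and the call was lost without 0% leaf 3 (-2.36, adjusted p = 0.29), without any single 0% root, any single 100% leaf, or 100% root 1 or 3. Of the 12 high-affinity nitrate uptake genes 1 had a lower difference at 100% than at 0% (8.33%), near the 7.24% of all tested genes. Of the 15 urea and ureide genes 6 had a lower one (40.0%).

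Among the named genes with a higher difference at 100% were an enzyme of sulfate reduction and one of photorespiration. Adenylylsulfate reductase 1, D1007_25844, had 16.9 ± 5.98 CPM in leaf and 194 ± 79.3 CPM in root at 0% and the reverse order at 100%, 1668 ± 331 and 144 ± 91.5 CPM, a difference higher by 7.40 ± 0.75 (adjusted p = 7e-05). The P subunit of glycine decarboxylase, D1007_50390, had 1506 ± 517 CPM in leaf at 0%, 1502 ± 152 CPM at 40% and 8065 ± 408 CPM at 100%, with 488 to 683 CPM as the root means, and its difference was higher by 2.30 ± 0.41 than at 0% (adjusted p = 0.0021). Their lists as a whole moved less, with 6 of 31 sulfate genes higher and 3 lower, and 3 of 22 photorespiration genes higher and none lower. Over all tested genes 8.70% were higher and 7.24% lower. Plastid ribosomal proteins had a higher difference at 100% than at 0% for 22 of 43 (51.2%) and a lower one for 2. WRKY factors had 24 of 82 higher (29.3%) and 2 lower, and heat shock proteins 15 of 69 (21.7%) and 4. Shares nearer to those of all genes were found for NAC factors (13.9% higher, 1.27% lower), ERF factors (16.3% and 7.14%) and cytosolic ribosomal proteins (1.61% and 9.14%). Of 26 gibberellin genes 6 were higher and none lower.

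Several named regulators called higher in root had a smaller difference from leaf at 100% than at 0%. TIFY 11b, D1007_21563, had 11.9 ± 10.7 CPM in leaf at 0% and 181 ± 161 CPM at 100%, with 1139 ± 223 and 986 ± 146 CPM in root, a difference higher by 4.46 ± 0.95 (adjusted p = 0.0062). WRKY71, D1007_57881, had 24.6 ± 16.4 and 190 ± 171 CPM in leaf with 1225 ± 93.8 and 1174 ± 117 CPM in root (higher by 3.34 ± 0.82, adjusted p = 0.013). The GRAS factor CIGR homolog D1007_51650 had 63.8 ± 9.03 and 185 ± 127 CPM in leaf with 1428 ± 55.8 and 1076 ± 209 CPM in root (higher by 2.28 ± 0.52, adjusted p = 0.0093). The leaf values of these genes at 100% carried an SD near their mean.

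Among the named genes, the largest changes of the organ difference against 0% were uneven in their support. The high molecular mass early light-inducible protein D1007_40217, a chloroplast protein made under strong light, had no count in leaf at 0% and 284, 482 and 96.6 CPM at 100%, with a mean of at most 0.664 CPM in root at any rate (adjusted p = 0.00022). The pumilio homolog D1007_27271 had 0.402 ± 0.36 CPM in leaf at 0% and 25.3 ± 2.05 CPM at 100%, and almost none in root (adjusted p = 0.006), a call lost without 0% root 2 (adjusted p = 0.057). A photosystem II 10 kDa locus assembled from reads at 79336 to 80699 on scaffold SDOW01000186.1 (minus strand) had 488 ± 183 CPM in leaf at 0%, 225 ± 45.5 CPM at 40% and 10.5 ± 4.99 CPM at 100% (change of the log2 difference -9.65 ± 1.03, adjusted p = 0.00011). The glyoxylate cycle enzyme isocitrate lyase, D1007_60153, had 359 ± 417 CPM in leaf at 0% and no count at 100% (adjusted p = 0.0017). Leaf 2 alone carried WIR1A, a locus assembled from reads at 791931 to 793542 on scaffold SDOW01000154.1 (plus strand), with 0, 890 and 0 CPM, and PR-1a, D1007_16579, with 0, 147 and 0 CPM, and without it both lost their calls and changed sign, to -2.12 and -1.45 against 0%. Leaf 1 alone carried the amino acid transporter AVT1I, D1007_01917, with 23.1, 0.0564 and 0.113 CPM, whose call against 0% was lost without it (4.31, adjusted p = 0.15).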

How the data were processed

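RNA was extracted with TRIzol and made into libraries with an NEBNext Ultra RNA kit, per the labels' protocols. The authors deposited whole read counts per locus with the locus length in bases. The submitters' processing notes list, with no role or order, DESeq2 1.20.0, featureCounts 1.5.0-p3, HISAT2 2.0.5, fastp and CASAVA 1.8. They also name mouse builds, while every locus lies on a barley scaffold, and the build, strand setting and treatment of shared reads are not given in the sources used here. Gene names are the table's own annotations, either its description or its Swiss-Prot match.

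Genes were kept with edgeR's filterByExpr (minimum count 10, total 15). All 18 libraries entered a single edgeR 4.0.16 quasi-likelihood fit (R 4.3.3) with a mean per organ and rate and TMM factors, and p-values were adjusted by Benjamini-Hochberg over 24046 genes. The leaf-root difference at 100% and its difference from 0% and 40% were contrasts of that fit. In simulated counts edgeR recovered 65.7% of 2-fold, 91% of 4-fold and 99% of 8-fold changes between the organs. It called 2.67% of unchanged genes. The simulation gave each gene the same spread in all groups, so it cannot check the effect of the unequal spread of leaf and root. CPM were computed from the deposited counts and library totals. Standard errors were derived from the F statistic.

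The organs, gene lists and names were chosen with earlier results of these data known. Named genes were the highest per length in each organ and, for nitrogen lists, the largest called change each way with at least 5 CPM. Also named were the 5 largest called changes each way over all genes with at least 50 CPM. The largest called differences from the other rates with at least 20 CPM were named as well. Both of these groups were limited to genes with an informative description. For the changes between the organs, the libraries of the organs also had to be fully separate. Some of the 121 genes so named appear only in counts. P-values measure the spread between libraries, which may be technical.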

Additional observations from a re-analysis of the deposited data

Results flagged for a closer look

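By the interaction test, 48 of the 121 named genes had a leaf-root difference at 100% that differed from that at 0%. Of these, 29 had a higher and 19 a lower difference. Genes named for their difference from 40% that differed from 40% only were added, which gave 52 flagged genes. Against 40%, 37 of the 121 named genes differed. Any that differed from 40% only but were named for another reason are not listed here. Values below are changes of the leaf-minus-root log2 difference, against 0% unless stated. Where an organ had no count at a rate, the fitted size depends on the prior count and is no bound.

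Among nitrogen genes the change was 6.54 for NADH nitrate reductase D1007_31007, -2.49 for glutamine synthetase D1007_38808, -4.66 for asparagine synthetase 1 D1007_37625, -4.02 for alanine-glyoxylate aminotransferase 2 D1007_53835, -1.81 for cationic amino acid transporter 2 D1007_39707 and -2.31 for ureide permease 2 D1007_07614. The nitrate reductase went from a mean of 3.21 CPM in leaf and 87.9 CPM in root at 0% to 453 and 172 CPM at 100%.

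Among chloroplast, mineral and wall genes it was 1.45 for light-harvesting-like protein 3 D1007_61729, 2.30 for glycine decarboxylase P D1007_50390, 3.63 for glutamyl-tRNA reductase 3 D1007_45380, 1.96 for L12-2 D1007_02723, 7.40 for adenylylsulfate reductase 1 D1007_25844 and 1.29 for KEA3 D1007_53113. It was -8.46 for CASP-like 1D1 D1007_04149, 2.21 for peroxidase 51 D1007_37159, 2.88 and -1.27 for cellulose synthases D1007_59142 and D1007_07026, and -1.12 for endoglucanase 12 D1007_61590. Cellulose synthase D1007_59142 fell to 1.80 without 100% leaf 1 (adjusted p = 0.089) and lost its call in 11 of 19 settings, D1007_07026 and the endoglucanase in 13 each.

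Among stress and hormone genes it was 2.02 for GSTF1 D1007_26461, 1.00 for alcohol dehydrogenase class-3 D1007_55592, -1.92 for sucrose synthase 1 D1007_25299, 1.42 for heat shock protein 81-1 D1007_15474 and -4.14 for GH3.8 D1007_19264. The cytokinin-activating LOG genes D1007_47842 and novel_locus_3378 had 2.56 and -1.10, and the latter lost its call in 13 of 19 settings. The seed-specific protein D1007_37999 had 2.14, gibberellin 20 oxidase D1007_61034 had 3.68 and the gibberellin-responsive D1007_51650 had 2.28. Gibberellin 20 oxidase rose from a mean of 9.49 CPM in leaf at 0% to 303 CPM at 100%, with 36 and 113 CPM in root.

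Regulators included TIFY 11b D1007_21563 (4.46), WRKY71 D1007_57881 (3.34), the NAC factor D1007_36621 (2.28), ERF3 D1007_36741 (3.18) and the homeobox factor D1007_18348 (1.87).

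The genes with the largest changes were isocitrate lyase D1007_60153 (-17.69), germin D D1007_28829 (-9.88), an acyltransferase D1007_33085 (-9.69), the photosystem II 10 kDa locus novel_locus_1510 (-9.65), a LOG gene D1007_60055 (-9.44), pumilio D1007_27271 (10.17), AVT1I D1007_01917 (10.65), PR-1a D1007_16579 (11.49), WIR1A novel_locus_1302 (13.44) and the high molecular mass early light-inducible protein D1007_40217 (17.25). The LOG gene moved to -3.76 without 100% root 3 (adjusted p = 1) and lost its call in 12 of 18 settings, and germin D lost its call in 11 of 19.

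Genes named for their difference from 40% were cysteine synthase novel_locus_4909 (-7.39 against 0%), the chloride channel D1007_45850 (-5.09), B-box protein 20 D1007_60916 (-5.72), GDPD2 D1007_09643 (3.10), the low molecular mass early light-inducible protein D1007_16609 (6.77) and Lea14-A D1007_14052 (9.74). The chloride channel moved to -1.64 without 0% leaf 2 (adjusted p = 0.64) and lost its call in 12 of 19 settings, and GDPD2 in 13. Against 40% only, it was -7.60 for cytochrome P450 D1007_25872, -7.43 for sulfotransferase D1007_29046, 10.84 for the TIFY protein D1007_09735 and 11.70 for the heptahelical protein D1007_53404. Lea14-A rested on leaf 1, at 88.9 CPM against 2.2 and 0.169 CPM in the other leaf libraries.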

How the results depend on the processing

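The leaf-root calls were 6386 and 8771, and root-higher genes fell to 5840 against a minimum log2 change of 1. Every other alternative kept both counts within 1.5 times. The 6 libraries alone gave 5950 leaf-higher and 5999 root-higher genes, nearly equal counts. Leaving out a library gave 5808 to 6718 leaf-higher and 7860 to 8700 root-higher genes. The counts against 0% (2092 higher, 1742 lower) became 533 and 310 against a minimum log2 change of 1. The lower count was 3287 with library size alone and the higher count 3330 with DESeq2. Leaving out a library gave 1338 to 2654 higher and 1081 to 1845 lower. The counts against 40% (1719 and 1043) became 320 and 135 against a minimum log2 change of 1, 2920 and 1599 with DESeq2, and 971 to 2315 and 526 to 1383 without a library. The lower count was 2151 with library size alone. The cause was not tested, apart from the stricter threshold and fewer samples that some of these settings set by construction.

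Same-numbered libraries deviated together little, if at all (correlations at 100% of 0.05, 0.02 and 0.06, against -0.08 to 0.04 for unlike numbers). This cannot show whether they share a plant or pot, since a shared plant may affect its organs differently. The main fit treated the organs as unpaired. With a replicate block the counts were 5860 and 8074 for leaf against root, 1385 and 1061 against 0%, and 885 and 507 against 40%.

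Of 1802 recomputed leaf-root values of the 121 named genes, 1743 kept their status as called or not called. A change of direction was scored only where the gene was called in at least 1 of the 2 fits compared. Some genes called in neither changed sign as well, such as NRT2.4, D1007_49225 (-0.33 to 0.61). Among the values so scored, the direction turned without leaf 1 for AVT1I, D1007_01917 (range over the alternatives -5.86 to 1.08), and Lea14-A, D1007_14052 (-3.80 to 1.39). It turned without leaf 2 for PR-1a, D1007_16579 (-6.00 to 9.30), and WIR1A (-5.91 to 10.36). The last 2 also turned against 0% (-1.45 to 14.98 and -2.12 to 14.17). Of 908 values against 0%, 734 kept direction and call, but 34 of the 48 genes lost their call in at least 1 setting and 9 in over 50% of the settings. Of 190 values against 40%, 178 kept both, and 3 of 10 genes lost their call in at least 1 setting. Depth limits genes below the floor of 3 counts, and shared reads of close copies limit the NRT2.1, Rubisco and germin-like loci.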

Other observations

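Protein families of the table's domain annotation, outside the lists above, were counted where at least 20 members were tested, which held for 91 families. Plastocyanin-like copper-binding proteins of the cell surface were higher in root for 30 of 43 and in leaf for 2, with a median log2 change of -5.06. Subtilisin-like proteases were higher in root for 20 of 38 and in leaf for 6. Cytochromes P450, the largest enzyme family of plants' specialised metabolism, were higher in root for 125 of 250 and in leaf for 60. The share of all tested genes was 36.5% for root and 26.6% for leaf, and the families were chosen after their values were seen.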
